A study of Homo sapiens with 6 samples.

Results

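The core circadian clock is represented here by 10 genes whose products act on, or answer to, the E-box element: ARNTL, CLOCK, NPAS2, PER1, PER2, PER3, CRY1, CRY2, NR1D1 and NR1D2. The genes were chosen by name, and each was looked up among the promoters, typical enhancers and super-enhancers listed as bound by N-Myc, by JMJD6 or by both proteins. Of the 10 genes, 7 were named in at least 1 list and 3 (CLOCK, PER3 and CRY2) in none. ARNTL, NPAS2 and NR1D2 were named only as a nearest gene of a typical enhancer. Among the 19222 autosomal protein-coding genes in the annotation, N-Myc promoters named 18.3% and N-Myc typical enhancers 32.7%. The share named in at least 1 list was not computed, so 7 of 10 has no background of its own. Beside the lists there were 10172 N-Myc peaks and 561 JMJD6 peaks, each of them common to all replicates of its protein. Not every listed promoter overlapped such a peak. Those of NFIL3 and BTRC, further clock genes described below, were listed for N-Myc without one.

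The binding sites came from ChIP-seq of CHP-134 cells, a human neuroblastoma line, and the 6 samples formed 2 groups of 3, 1 for each antibody (N-Myc or JMJD6). N-Myc, the product of the MYCN oncogene, is a basic helix-loop-helix transcription factor, and JMJD6 is a jumonji domain protein that binds chromatin. Chromatin for N-Myc was cross-linked with formaldehyde alone and chromatin for JMJD6 with disuccinimidyl glutarate followed by formaldehyde, so antibody and cross-linking cannot be told apart in any difference between the proteins. The lists give positions only, pooled over replicates, so peak height, read depth and the spread between replicates are unknown and no difference below was tested. As a check of the cell type, the adrenergic neuroblastoma markers HAND2, GATA3 and MYCN were named at N-Myc super-enhancers and ISL1 and TH at typical enhancers, while DBH was in no list. N-Myc typical enhancers named 32.7% of autosomal coding genes and N-Myc super-enhancers 1.36%, so the listing of ISL1 and TH says little about cell type. The paper describes the line as MYCN-amplified. These lists show binding and not expression.

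In the clock, CLOCK or its paralogue NPAS2 pairs with ARNTL (also called BMAL1) and the heterodimer activates genes through the E-box, CACGTG. The PER and CRY genes are among its targets, and their proteins return to the nucleus to repress the heterodimer. NR1D1 and NR1D2 (REV-ERB alpha and beta) are targets too and encode nuclear receptors that repress ARNTL, closing a further loop. Myc proteins, paired with MAX, bind the same CACGTG sequence.

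N-Myc was listed at the promoters of 4 of the 10 genes, PER1, PER2, CRY1 and NR1D1. It was listed at 0 of the 3 activators, which is near the 18.3% share of all autosomal coding genes. A promoter was the 1 kb on each side of a RefSeq start site. Sequences from the peaks that overlap these promoters are shown first. Each surrounds a motif, or in CRY1 the middle, of such a common N-Myc peak. The flank of the NR1D1 upstream sequence runs just past the end of its peak. Both NR1D1 intron sequences lie outside the listed promoter, which their peak enters by only 10 bp. All are read from the GRCh37 reference, 5′ to 3′ on the strand of the gene, which is the minus strand in all 4. Capitals mark an E-box (CACGTG), or in PER2 the E-box variant CATGTG and, after it, the D-box TTATGTAA.
PER1, chr17:8055863-8055922: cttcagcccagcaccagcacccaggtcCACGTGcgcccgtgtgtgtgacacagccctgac
PER2, chr2:239197557-239197616: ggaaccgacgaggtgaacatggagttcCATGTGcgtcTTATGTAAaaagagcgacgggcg
NR1D1 upstream, chr17:38257274-38257333: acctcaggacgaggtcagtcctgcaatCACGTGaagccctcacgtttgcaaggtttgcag
NR1D1 intron, chr17:38255680-38255709: tagagccgggccCACGTGctgcgtttgttt
NR1D1 intron, chr17:38255384-38255428: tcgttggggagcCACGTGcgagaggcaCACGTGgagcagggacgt
CRY1, middle of the peak, chr12:107487513-107487542: aggcagtgagttcagcgtgtggacgagggt

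The share of 4 in 10 stood beside 18.3% of all autosomal coding genes with an N-Myc promoter row. With 10 genes each gene moves the share by a large step, and 2 of the 4, PER1 and NR1D1, lie on chromosome 17. The 4 genes stayed the same when the deposited rows were replaced by a common peak within 1 kb of any annotated start site, or within 5 kb, for which the shares of all coding genes were 21.5% and 26.5%. JMJD6 was listed at 0 of the 10 promoters, beside 0.655% of all coding genes, a background so low that 0 of 10 is near it. The promoter list for both proteins named none of the 10 either. No other gene's listed promoter overlapped those of the 4 genes.

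Distances to the nearest peak are not a separate result for the 4 genes, since each of their promoter rows overlaps a common peak within 1 kb of a listed start. From the canonical start site, the nearest N-Myc peak covered the start of NR1D1 (0 kb), and lay 0.021 kb from PER1, 0.099 kb from CRY1 and 0.265 kb from PER2. The next gene was NR1D2 at 27.5 kb, followed by CLOCK at 151 kb, NPAS2 at 182 kb, CRY2 at 202 kb, PER3 at 329 kb and ARNTL at 432 kb. All coding genes had a median of 54.4 kb and 18.0% lay within 1 kb, so the 3 activators, PER3 and CRY2 were all farther from N-Myc binding than the typical gene. ARNTL was the farthest, with 91.6% of coding genes nearer to an N-Myc peak.

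**Figure D1:**
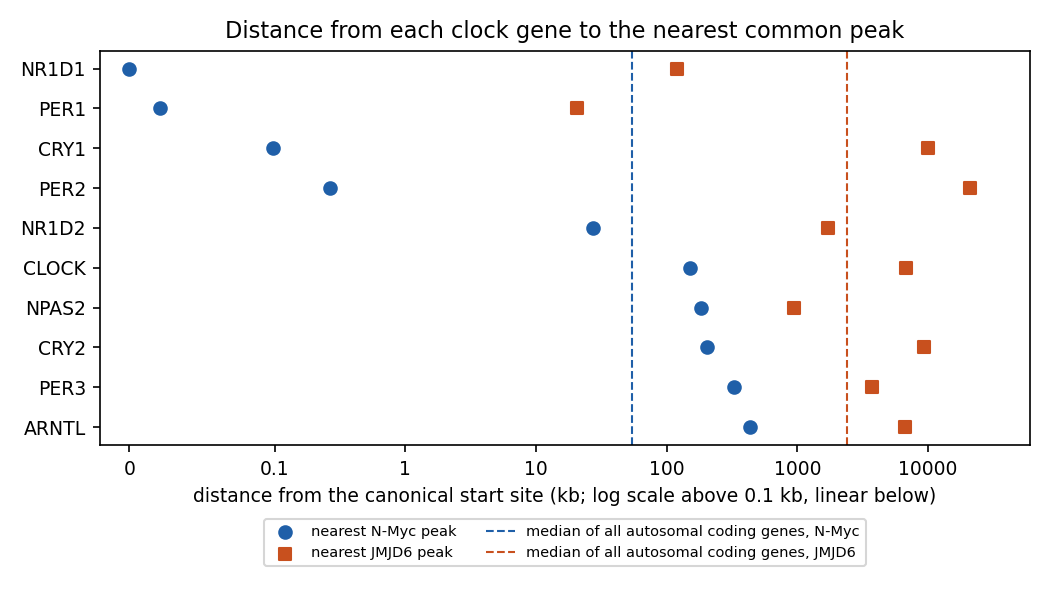
Distance in kb (log scale above 0.1 kb, linear below) from the canonical start site of each of the 10 clock genes to the nearest common N-Myc peak (blue circles) and JMJD6 peak (orange squares), with the medians of all autosomal coding genes as dashed lines. NR1D1, PER1, CRY1 and PER2 lie within 0.265 kb of an N-Myc peak, while the nearest JMJD6 peaks begin 20.6 kb away, at PER1.

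Like the distances, counts of N-Myc peaks around each gene are not a separate result. They include the promoter peaks of PER1, NR1D1, PER2 and CRY1, so none of these genes could have 0. The counts did not split cleanly by promoter row, since NR1D2, which had no such row, came close to PER2 and CRY1. Within 100 kb of the canonical start there were 15 N-Myc peaks at PER1, 7 at NR1D1, 3 each at PER2 and CRY1, and 2 at NR1D2. CLOCK, NPAS2, ARNTL, PER3 and CRY2 had 0, as did 36.6% of coding genes, for which the median was 1. JMJD6 peaks were far from most of the genes. The nearest lay 20.6 kb from PER1 and 120 kb from NR1D1, and the others were between 939 kb (NPAS2) and 20898 kb (PER2) away, beside a median of 2376 kb for all coding genes.

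Of the activators, ARNTL encodes the obligate partner, CLOCK the partner with acetyltransferase activity, and NPAS2 a partner abundant in the forebrain. None had a promoter row, and with only 3 genes this is near the 18.3% share of all coding genes. ARNTL and NPAS2 were named only as a nearest gene of a distant N-Myc typical enhancer, and a nearest gene is assigned by distance alone. The ARNTL regions lay 470 kb and 432 kb upstream of it, at chr11:12820670-12837275 and chr11:12866802-12868537, and their N-Myc peaks fell in introns of TEAD1, the other gene named for them and a Hippo pathway transcription factor. Those peaks, 323 and 712 bp wide, held 1 and 2 CACGTG. The NPAS2 region, chr2:101178919-101180187, lay 257 kb from NPAS2 and 0.401 kb from the start of PDCL3, whose own promoter was listed, and its peak of 551 bp held no CACGTG.

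The period genes encode the PER proteins, which carry the repressor complex, and differed among themselves. At PER1 (gene identifier ENSG00000179094) the promoter row spanned chr17:8054753-8056753, and the peak, chr17:8055743-8056150, was 408 bp wide. Its middle lay 193.5 bp upstream of the listed start and it covered PER1 exon sequence. It held 1 CACGTG, centred 139.5 bp upstream of the start. A further N-Myc peak of 537 bp, chr17:8059789-8060325, lay outside the row, 4304 bp upstream of the listed start but 233 bp upstream of another annotated PER1 start site, and held 2 CACGTG. PER1 therefore carried N-Myc peaks at more than 1 of its start sites, each with an E-box.

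At PER2 (ENSG00000132326) the row spanned chr2:239196207-239198207. Its peak, chr2:239197516-239197754, was 239 bp wide and lay 428 bp upstream of the listed start, in an intron of a longer annotated PER2 transcript. It held no CACGTG. The 1 CACGTG of the row was outside the peak, 851.5 bp upstream of the canonical start. What the peak did hold was the CATGTG variant 379.5 bp upstream of the listed start, followed after 4 bases by TTATGTAA. The D-box is the element bound by the clock output factors DBP, TEF, HLF and NFIL3. CATGTG was in 22.5% of the 3550 N-Myc peaks over listed promoters, and TTATGTAA in 33 of them, or 0.930%. PER3 (ENSG00000049246), the remaining period gene, was in no list and had no N-Myc peak within 100 kb.

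The cryptochromes are the direct repressors of the heterodimer. At CRY1 (ENSG00000008405) the row spanned chr12:107486635-107488635 and the peak, chr12:107487426-107487630, was 205 bp wide, narrower than all but 0.310% of N-Myc promoter peaks. The middle of the peak lay 107 bp downstream of the listed start and 201 bp upstream of the nearest annotated start, since the listed and the canonical start differed by 308 bp. The peak held no CACGTG and no CANNTG, the general E-box pattern that 87.1% of promoter peaks contained, and neither did the whole row hold a CACGTG. Outside the row, a peak of 246 bp at chr12:107485764-107486009 and a peak of 490 bp at chr12:107420140-107420629 were intronic, and the latter overlapped the edge of a typical enhancer of 2.05 kb that was listed 66.1 kb from the CRY1 start. Neither held CACGTG and both held 1 CATGTG. CRY2 (ENSG00000121671) was in no list.

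NR1D1 (ENSG00000126368) had the densest N-Myc binding of the nuclear receptors. Its row, chr17:38255978-38257978, overlapped 2 peaks. The peak over the start, chr17:38256664-38257328, was 665 bp wide with its middle 18 bp upstream of the listed start, and held 1 CACGTG, 325.5 bp upstream, and 2 of the CACGTT variant. The other, chr17:38255339-38255987, was 649 bp wide, lay in an intron with its middle 1315 bp downstream and entered the row by only 10 bp. It held 3 CACGTG, at 1283.5, 1564.5 and 1579.5 bp downstream of the listed start, and 1 TTATGTAA. Peaks with at least 3 CACGTG made up 0.817% of N-Myc promoter peaks, and peaks with a pair of CACGTG starting within 15 bp of each other, as in this intron, 0.423%. Both limits equal the values of this peak itself, so these shares do not measure how unusual it is.

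Both NR1D1 promoter peaks sat in an N-Myc typical enhancer of 27.04 kb, chr17:38254642-38281679, assigned to NR1D1 and MSL1, a subunit of a histone acetyltransferase complex. This region held 5 N-Myc peaks, of which 3 contained CACGTG, and 0 JMJD6 peaks. NR1D2 (ENSG00000174738), the paralogue, had no promoter row. The typical enhancer that named it, chr3:23956826-23960520, lay 28.1 kb away, over the listed promoters of NKIRAS1 and RPL15, and its N-Myc peak of 805 bp held no CACGTG.

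Over the 5 promoter peaks of the 4 genes, 3 held CACGTG, the PER1 peak and both NR1D1 peaks, beside 36.9% of all 3550 N-Myc promoter peaks. Counting only peaks with at least 50% of their length inside a row would leave out the intronic NR1D1 peak. Widths ran from 205 to 665 bp with a median of 408 bp, beside 452 bp for all promoter peaks, and the middles lay a median of 193.5 bp from the listed start, beside 254 bp. In order of width, the peaks of CRY1 and PER2 were among the narrowest promoter peaks (0.310% and 2.96% were narrower), that of PER1 was near the middle (41.1%) and those of NR1D1 were in the upper part (78.9% and 80.5%). The 2 peaks without CACGTG were narrower than the 3 with it, and the part of width in this was not tested. D-boxes were in 2 of the 5 peaks, those of PER2 and the NR1D1 intron, and this motif was looked up after the PER2 sequence had been seen.

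**Figure D2:**
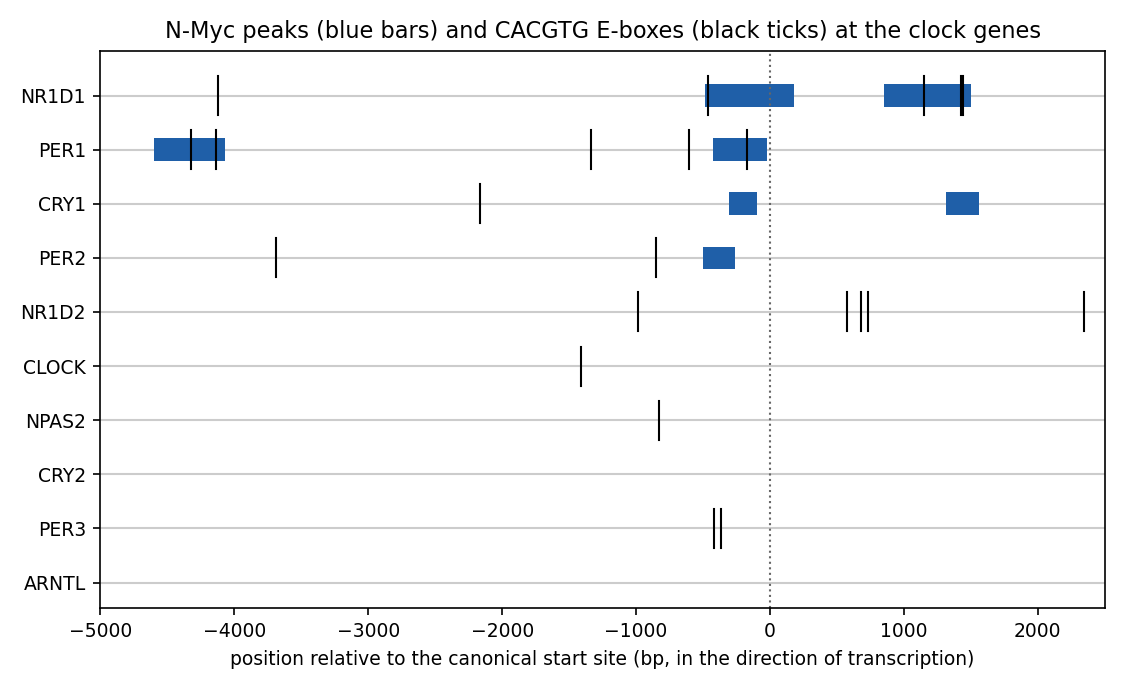
N-Myc peaks (blue bars) and CACGTG E-boxes (black ticks) from 5000 bp upstream to 2500 bp downstream of the canonical start site (dotted line) of each of the 10 clock genes, in the direction of transcription. In this window 3 of 5 E-boxes at PER1 and 4 of 5 at NR1D1 lie inside an N-Myc peak, PER2 and CRY1 have peaks without an E-box, and the 5 E-boxes of NR1D2 and 2 of PER3 have no peak.

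An E-box near the start was found both in genes with an N-Myc promoter row and in genes without one, and the difference was not tested. The set was defined by its tie to the E-box, so a share of CACGTG above that of all coding genes is not a separate finding. Within 1 kb of the canonical start, CACGTG was present in 6 of the 10 genes, beside 29.2% of all coding genes. It was present in 3 of the 4 with an N-Myc promoter row (2 copies in PER1 and 1 each in PER2 and NR1D1, but 0 in CRY1), and in 3 of the 6 without (1 copy in NPAS2, 2 in PER3 and 4 in NR1D2, but 0 in ARNTL, CLOCK and CRY2). Across all coding genes the share was 47.0% with an N-Myc row and 25.2% without. NR1D2 had more copies than any of the 4 bound genes and its nearest N-Myc peak was 27.5 kb away. The GC content of the same windows ran from 57.2% to 64.7% in the 4 genes and from 56.2% to 71.2% in the other 6, so the ranges overlapped. In the shorter RefSeq promoters, from 250 bases before to 50 after the start, CACGTG was in 8.77% of genes, all 10 clock genes had a sequence, and PER1 was the 1 clock gene of the 10 with it.

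The E-boxes of the genes without N-Myc promoter binding are shown for comparison with the bound ones above, again from GRCh37, 5′ to 3′ on the plus strand, which is that of all 3 genes, with CACGTG in capitals.
NPAS2, chr2:101435739-101435798: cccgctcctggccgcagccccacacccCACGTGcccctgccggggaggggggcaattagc
PER3, chr1:7843900-7844013: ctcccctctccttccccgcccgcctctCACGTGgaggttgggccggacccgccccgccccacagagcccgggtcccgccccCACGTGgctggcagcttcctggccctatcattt
NR1D2 upstream, chr3:23985763-23985822: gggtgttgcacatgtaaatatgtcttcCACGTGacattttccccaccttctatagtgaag
NR1D2 intron, chr3:23987336-23987365: ggccgcgcgagcCACGTGcgcgctgtgttt
NR1D2 intron, chr3:23987445-23987524: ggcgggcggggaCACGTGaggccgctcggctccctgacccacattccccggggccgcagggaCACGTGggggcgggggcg
The PER3 copies lay 421.5 and 367.5 bp upstream of the canonical start, the NPAS2 copy 832.5 bp upstream, and 3 of the 4 NR1D2 copies between 573.5 and 732.5 bp downstream.

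Enhancers named 5 of the 10 genes for N-Myc (ARNTL, NPAS2, CRY1, NR1D1 and NR1D2), beside 32.7% of coding genes, and 0 for JMJD6, beside 0.942%. Only the regions of CRY1 and NR1D1 overlapped the gene's own listed promoter, and the regions of 3 genes (CRY1, NR1D1 and NR1D2) came within 100 kb of a start site of the gene. Super-enhancers named 0 of the 10 genes for either protein, beside 1.36% of coding genes for N-Myc and 0.078% for JMJD6.

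PER1 nevertheless lay inside a super-enhancer that does not carry its name. The share of all coding genes that lie inside a listed super-enhancer was not computed, so this position has no background beside it. The region, chr17:8042494-8127548, was 85.1 kb long, was listed for N-Myc, for JMJD6 and for both, and was assigned to TMEM107, a ciliary transition zone gene, and AURKB, the mitotic Aurora B kinase. It held 10 N-Myc peaks and 1 JMJD6 peak. The PER1 promoter peak and the peak at the further PER1 start were the ones nearest to PER1, 0.194 and 4.30 kb upstream of the listed start. The next N-Myc peak, 769 bp wide at chr17:8076293-8077061 over TMEM107 and SNORD118, was 20.9 kb upstream and had the same start and end as the JMJD6 peak. It held no CACGTG. The other 7 N-Myc peaks lay 33.9 to 70.9 kb upstream of PER1. JMJD6 binding was thus recorded in the region that spans PER1 but not at the PER1 promoter itself.

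**Figure D3:**
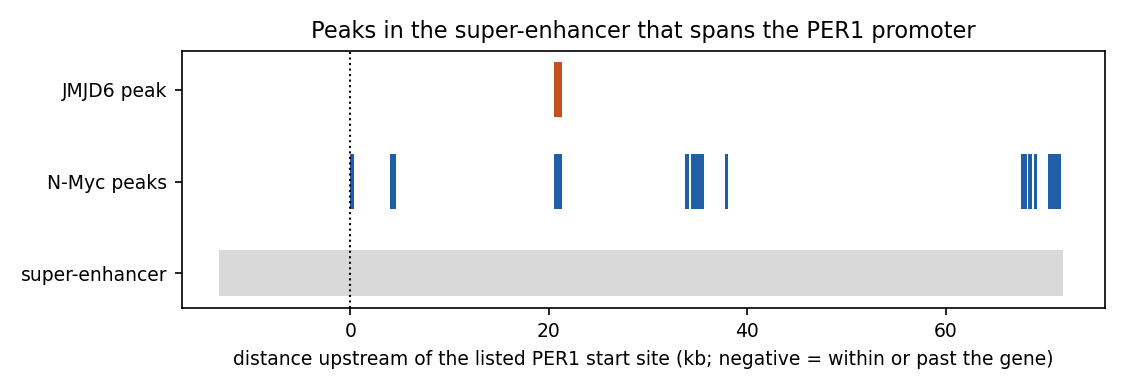
Positions in kb upstream of the listed PER1 start site (dotted line) of the super-enhancer (grey), its 10 N-Myc peaks (blue) and its JMJD6 peak (orange). The JMJD6 peak coincides with the N-Myc peak 20.9 kb upstream, and the 2 N-Myc peaks nearest to PER1 have no JMJD6 peak.

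Among 27 other clock genes, taken from a list by role, 10 had an N-Myc promoter row (37.04%, beside 18.3% of coding genes), and FBXL21, a pseudogene in the annotation, and NONO, on chromosome X, are not in that background. By role these were 4 of 10 second-loop and output factors (RORB, NFIL3, DBP and CIART), 2 of 9 kinases, ligase subunits and turnover factors (BTRC and USP2), 2 of 3 binding partners (TIMELESS and SFPQ), 2 of 4 E-box output genes (NAMPT and WEE1) and 0 of 1 activator paralogue (ARNTL2). No common N-Myc peak lay over the rows of NFIL3 and BTRC, so 8 genes remain if a peak is required. Of the 9 peaks in the rows, 3 held CACGTG, which is near the 36.9% of all 3550 N-Myc promoter peaks. There was 1 copy each in USP2, a deubiquitinase, and WEE1, a cell cycle kinase. The peak of 1178 bp at CIART, a repressor of the CLOCK and ARNTL pair, held 5 copies.

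JMJD6 was listed at 2 of these 27 promoters, DBP and BTRC, both also listed for N-Myc, beside 0.655% of coding genes. At DBP, which encodes an activator that binds D-boxes, the N-Myc and JMJD6 peaks had the same limits, chr19:49140820-49141367, 548 bp wide with the middle 286.5 bp upstream of the listed start and no CACGTG. Equal limits were also seen at the shared peak over TMEM107 and SNORD118. The lists do not show whether the reads of each protein set these limits separately. At BTRC the canonical start was 0.048 kb from a JMJD6 peak and 10.6 kb from the nearest N-Myc peak. JMJD6 typical enhancers named DBP and TEF, its paralogue, beside 0.942% of coding genes. TEF had no promoter row for either protein, and its nearest JMJD6 peak lay 66.0 kb from the canonical start.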

How the data were processed

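Peak and region lists of ChIP-seq with antibodies against N-Myc (3 samples) and JMJD6 (3 samples) in CHP-134 cells were used, grouped by the antibody in the labels. According to the study's methods and the submitters' processing notes, the authors aligned reads to hg19 using BWA, used SAMtools and bedtools on the alignments, called peaks with MACS2 2.1.1.20160309 against input and kept peaks found in all replicates. They took promoters as 1 kb on each side of RefSeq start sites, defined enhancers and super-enhancers with ROSE and assigned nearest genes with GREAT. The 12 deposited lists hold positions in bp and gene names, and neither scores nor counts, and no column per sample, so depth is unknown and replicates could not be compared.

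Genes were matched by symbol and synonym to GENCODE release 44 lifted to GRCh37. Of 4330 N-Myc promoter rows with an annotated symbol, 88.0% had their centre (the listed start) within 100 bp of an annotated start, which was used as the check of the build. The canonical start is that of the transcript tagged canonical. Peaks overlapped a row from 1 bp. Motif matches on either strand of the reference were counted: the E-box CACGTG, its variants ending in CGTT, CGCG or TGTG after CA, the general pattern CANNTG, which includes the E-box and all but the CGTT and CGCG variants, and the D-box TTATGTAA. RefSeq promoter sequences were of GRCh38. Backgrounds cover 19222 autosomal coding genes, since the promoter lists held no row on the sex chromosomes. All 10 core genes were named whatever their values, as were genes named beside them and the other clock genes with a promoter row. Part of the marker list is not reported here. The members and gene lists were chosen with earlier results of these data known, and no test was run. Alternatives covered the source and distance of promoters, peak presence and width, region distance, motif, sequence window and overlap. Motif and distance procedures were tested on simulated data. Python 3.11.15, pysam 0.24.0 and matplotlib 3.10.9 were used.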

Additional observations from a re-analysis of the deposited data

How the results depend on the processing

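Of 21 alternatives to a reported value above 0, 16 gave counts or medians within 1.5 times of it. The other 7 alternatives concern counts of 0 (JMJD6 promoters and N-Myc super-enhancers) that stayed at 0, and most of them only filter an empty list, so they say nothing about stability. The exceptions rest on peak width, chromosome and region distance. With N-Myc promoters kept only where a peak reached the median width of the N-Myc list, 1 of the 10 core genes remained (NR1D1) in place of 4, and 4 of the 27 other clock genes in place of 10. No share of all coding genes was set beside these counts or the filtered enhancer counts below, and such filters remove genes from any set. Width is the 1 measure of size in the lists and is not a score. Without chromosome 17, which was left out after the data had been seen, 2 core genes (PER2 and CRY1) were at N-Myc promoters. Members named at N-Myc typical enhancers fell from 5 to 3 when the region had to lie within 100 kb of a start site, and to 2 when regions over N-Myc promoter rows were left out. The count of 3 promoter peaks with CACGTG ran from 2 to 4 over the motif definitions and windows. Of these, CACGTG or CACGTT (3) and peaks within 5 kb of any start site (4 of 7) were chosen after the data had been seen. The median width of the promoter peaks was 323.5 bp, and the median distance from the start 150.25 bp, without the NR1D1 peak that enters its row by 10 bp. Replicates could not be left out 1 at a time, since the lists are pooled. No paired analysis was possible because the lists have no column per sample. With no heights or read counts, a gene without a row may be bound below the threshold that all replicates had to pass.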
